A study of Homo sapiens with 16 samples.

Results

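REST, the corepressors it recruits and the splicing factors that oppose it were followed at the RNA level in 293T cells depleted of SETD2 or hnRNP L. The set is 10 genes, found by gene name in the RNA-seq table of 58884 genes, and 1 row matched each name. RCOR2, a CoREST scaffold gene, fell upon hnRNP L depletion and was the only one of the 9 tested genes to pass the test. Of all tested genes 6.76% passed it there, and the RCOR2 call did not hold under every alternative of the processing. REST was lower in all 4 depleted libraries, at 4.45 to 6.05 TPM against 6.69 and 7.01 TPM, but did not pass the test. Of all tested genes 20.6% lay wholly below scramble siRNA upon SETD2 and 37.8% upon hnRNP L depletion. The share that lay below it upon both depletions was not computed. SRRM4 was listed at or below 0.01 TPM. The question was whether the repressor, a corepressor or its splicing antagonist changed in the libraries in which some neuronal genes that REST is known to repress were called higher. 293T is a human embryonic kidney line that carries the SV40 large T antigen, and the titles of all 6 RNA-seq samples describe the cells as wild type. The cells received siRNA for 72 h, either scramble siRNA or siRNA against SETD2 or hnRNP L. SETD2 is the methyltransferase that trimethylates lysine 36 of histone H3, and hnRNP L is an RNA-binding splicing regulator. Each siRNA has 2 libraries, numbered 1 and 2 for scramble and hnRNP L siRNA and 2 and 3 for SETD2 siRNA. The study describes the replicates of its sequencing experiments as independent biological ones, the labels do not say what separates them, and p-values measure the spread between these libraries.

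REST is a zinc finger protein that binds the RE1 element near many neuronal genes and keeps them silent in non-neuronal cells. Its N-terminal part recruits SIN3A and histone deacetylases, and its C-terminal zinc finger recruits the CoREST complex, in which an RCOR protein links the histone H3 lysine 4 demethylase KDM1A to deacetylases. EHMT1 and EHMT2, which methylate lysine 9 of histone H3, can be recruited as well. SRRM4 and its relative SRRM3 promote neuronal microexons, and SRRM4 can shift REST splicing to a truncated form with little repressor activity. The deposited values are per gene, so they do not separate REST isoforms.

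Values are TPM, transcript abundances per library that are corrected for transcript length, so that levels of different genes can be compared. TPM keep no read counts per gene, so no counting error is given. Fold changes were fitted with limma on log2(TPM + 0.5) over the 16300 genes whose mean reached 0.5 TPM, with all 6 libraries in 1 fit, and p-values were adjusted by the Benjamini-Hochberg method over those genes. A gene is called here if its adjusted p is below 0.05 and it changed more than 1.5-fold. With 2 libraries per group the smallest two-sided p of an exact permutation test is 0.333, so no single gene was tested that way. The siRNA targets were checked first. SETD2 had 13.38 and 11.7 TPM with scramble siRNA and 4.24 and 4.91 TPM with SETD2 siRNA, and HNRNPL had 341.04 and 457.16 TPM with scramble siRNA and 25.04 and 28.81 TPM with hnRNP L siRNA. The log2 fold changes were -1.36 for SETD2 (adjusted p = 0.00603 from limma) and -3.85 for HNRNPL (adjusted p = 8.48e-06). With hnRNP L siRNA SETD2 had 10.8 and 10.24 TPM, below both scramble libraries, as were 37.8% of all tested genes. SETD2 was not called there (log2 fold change -0.24, adjusted p = 0.269 from limma). HNRNPL had 394.73 and 413.42 TPM with SETD2 siRNA, within the range of the scramble libraries. Kidney epithelial marker genes (PAX2, PAX8, KRT8, KRT18, EPCAM) summed to between 101.51 and 124.54 TPM per library and 5 neuronal markers to between 8.31 and 12.77 TPM. The kidney sum was mainly KRT18 and KRT8, which averaged 69.2 and 36.6 TPM over the 6 libraries. PAX2 averaged 2.41, EPCAM 1.40 and PAX8 0.04 TPM, so the sum does not show that the kidney markers were high as a set.

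The DNA that REST reads is shown first, because the listed target genes are described beside the repressor below. An RE1-like match was defined as CAGCACC, any 2 bases and GGACAG, on either strand, with at most 1 mismatch in the 13 fixed letters. The search covered 2000 bases on each side of each gene start of GENCODE release 44 in hg38. In each line below the 13 letters compared with the motif are in capitals, and the strand shown is the one on which the motif was matched. SYP, CHGA and SYN1 match exactly, and BEX1, RUNDC3A and SRRM4 each have 1 mismatch among the capitals. The lines are the matches of the 4 called target genes that have one, of SYN1 and of SRRM4.
SYP: tcCAGCACCgtGGACAGag
CHGA: ttCAGCACCgcGGACAGcg
BEX1: ttCAGTACCgaGGACAGag
RUNDC3A: ctCAGCACCtcGGAGAGct
SYN1: ttCAGCACCgcGGACAGtg
SRRM4: ttCAGCACTttGGACAGcg
The SYP match lies at chrX:49200124-49200142 on the minus strand, in the intron after exon 1. The CHGA match lies at chr14:92923523-92923541 on the plus strand, also in the intron after exon 1. The BEX1 match, at chrX:103063326-103063344 on the plus strand, lies in the intron after exon 2 of a gene on the minus strand. RUNDC3A has its match in the UTR part of exon 1 at chr17:44308608-44308626 on the plus strand, 204 bases into the gene. The SYN1 match lies 224 bases upstream of the gene start, at chrX:47620072-47620090 on the minus strand. Of the 10 genes studied here, SRRM4 was the only one with a match, at chr12:118981833-118981851 on the plus strand, in the UTR part of exon 1 and 301 bases into the gene. A match was found at 2.10% of all 58435 genes with a GENCODE start. It was found at 19 of the 40 listed REST target genes (47.5%), 10 of which had an exact match. Among tested genes only, it was found at 2.23% of 16191 genes and at 9 of the 19 tested target genes (47.4%). A gene without a match only lacks these letters in this window. The target genes were listed as genes that REST is known to repress, so these shares are no test of the list. No binding of REST was measured in these libraries.

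**Figure D1:**
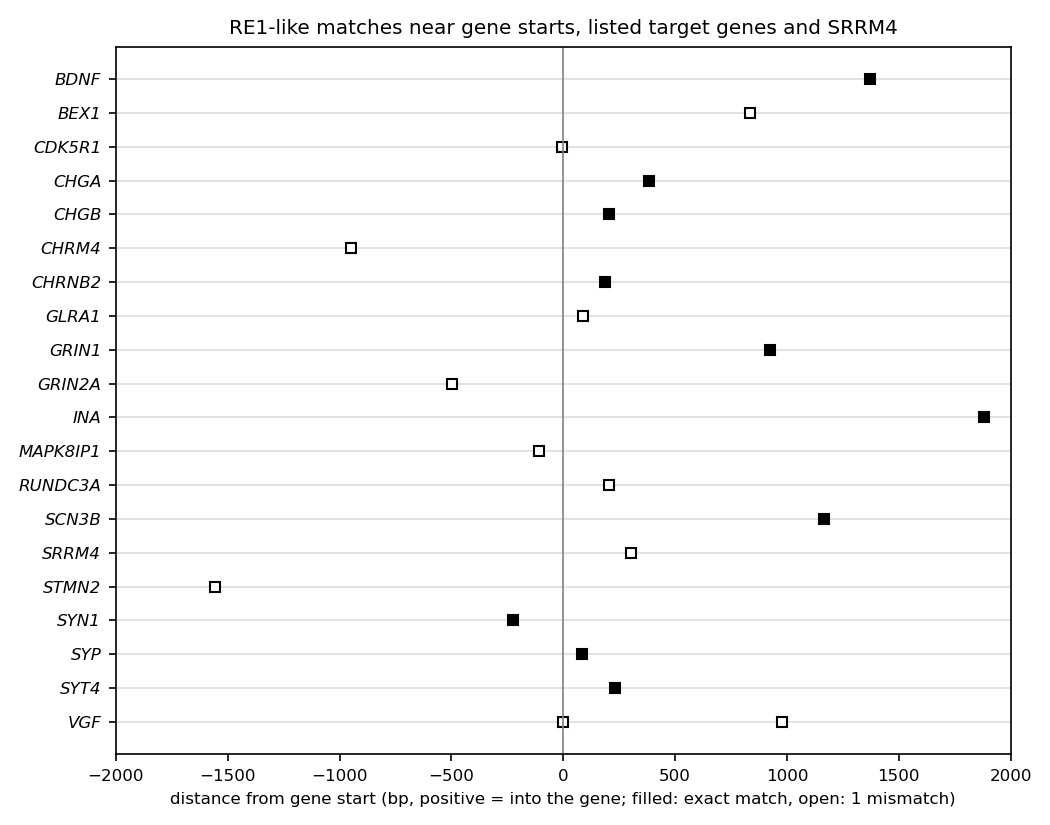
Position of each RE1-like match, as distance from the gene start in bp on the horizontal axis (positive into the gene), for the 19 listed target genes with a match and for SRRM4. Filled squares are exact matches and open squares have 1 mismatch, and most of the matches lie on the gene side of the start.

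Upon SETD2 depletion limma called 0 of the 9 tested genes, and 0 had an unadjusted p under 0.05. Of all tested genes 0.104% were called (0.0552% higher and 0.0491% lower), and 13.1% had such a p. The libraries of EHMT2 and SRRM3 lay above and those of REST below the scramble libraries, with 22.9% of all tested genes wholly above and 20.6% wholly below. Upon hnRNP L depletion 1 of the 9 was called, RCOR2, which was lower, where 6.76% of all tested genes were called (1.75% higher and 5.01% lower). An unadjusted p under 0.05 was reached by RCOR2 and REST, against 28.4% of all tested genes. The libraries of REST, RCOR2 and EHMT1 lay wholly below scramble siRNA, against 37.8% of all tested genes. The groups were apart in 3 of the 9 genes for each depletion, beside 43.5% of all tested genes upon SETD2 and 56.6% upon hnRNP L depletion. Between the depletions 1 of the 9 was called, again RCOR2, lower with hnRNP L siRNA, where 6.84% of all tested genes were called (2.15% higher and 4.69% lower), and 28.5% had an unadjusted p under 0.05, among them RCOR2 and EHMT1. The groups were apart in 4 of the 9, against 59.8% of all tested genes, with RCOR2, EHMT1 and EHMT2 lower (41.2%) and RCOR3 higher (18.6%). The median log2 fold change of the 9 genes was 0.03 upon SETD2 depletion, -0.01 upon hnRNP L depletion and -0.09 between the depletions, beside medians of 0.01, -0.08 and -0.10 over all tested genes. With 9 genes these counts do not set the group apart from all tested genes. Over all genes the split of calls depended on the scaling between libraries, with 286 higher and 816 lower upon hnRNP L depletion, 420 and 528 with median-ratio scaling and 424 and 482 with quantile normalization.

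**Figure D2:**
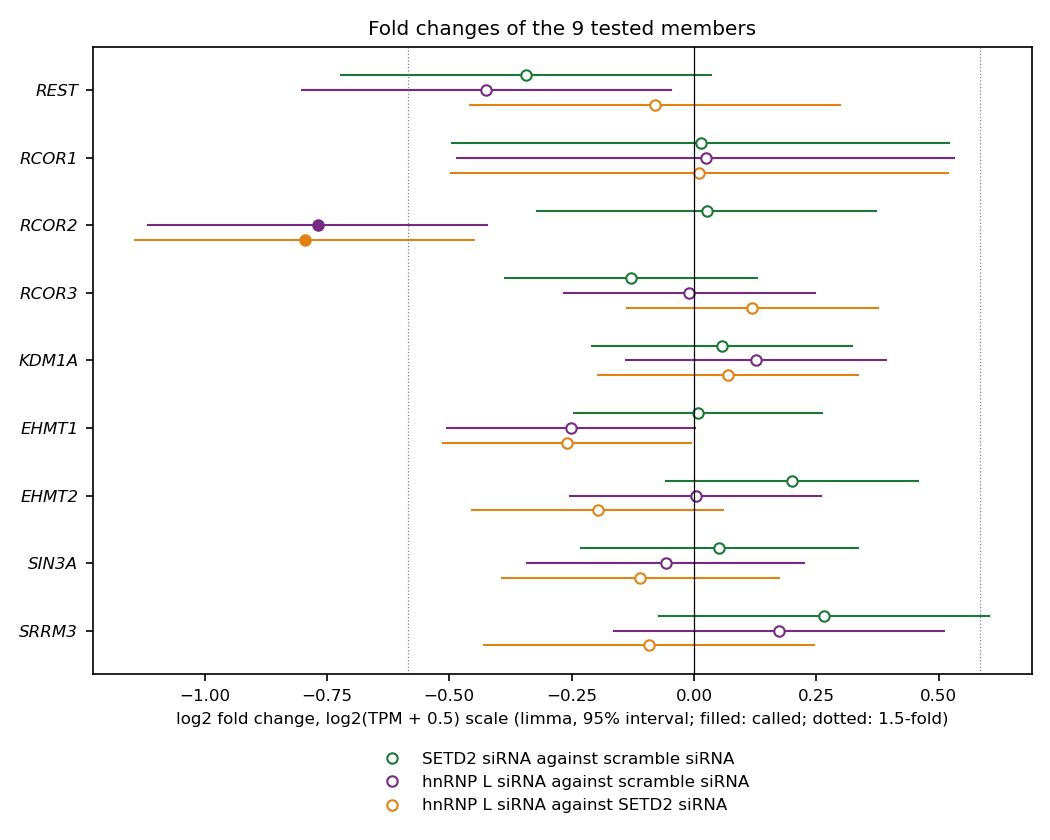
Log2 fold change on the log2(TPM + 0.5) scale (horizontal axis) of the 9 tested genes for the 3 comparisons, with 95% intervals from limma, filled points for called genes and dotted lines at a 1.5-fold change. RCOR2 is filled at -0.77 and -0.79, and the REST points against scramble siRNA are open at -0.34 and -0.42.

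REST (ENSG00000084093) spans positions 56907876 to 56966808 of chromosome 4 in hg38, on the plus strand. REST had 7.01 and 6.69 TPM with scramble siRNA. It had 4.62 and 6.05 TPM with SETD2 siRNA, and 4.45 and 5.56 TPM with hnRNP L siRNA. All 4 depleted libraries lay below both scramble libraries, and the libraries of the 2 depletions overlapped. The means were 6.85 ± 0.23 TPM (SD, n = 2) for scramble, 5.33 ± 1.01 TPM (SD, n = 2) for SETD2 and 5.00 ± 0.78 TPM (SD, n = 2) for hnRNP L siRNA. The REST log2 fold change was -0.34 upon SETD2 depletion (standard error 0.166, 95% interval -0.72 to 0.03, adjusted p = 0.412 from limma). Upon hnRNP L depletion it was -0.42 (standard error 0.166, 95% interval -0.80 to -0.05, adjusted p = 0.135 from limma). Neither value passed the test, although the unadjusted p upon hnRNP L depletion was 0.0319. The depletions share their scramble libraries, so the 2 values are not independent. Between the depletions REST differed by -0.08 (95% interval -0.46 to 0.30, adjusted p = 0.790 from limma), a value that turned to 0.02 and 0.03 with the other scalings between libraries.

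Library SETD2 siRNA replicate 2 and library hnRNP L siRNA replicate 1 were the lower ones of their groups in REST. The 3 tested genes most like REST over the 6 libraries were C11orf45 (Pearson's r = 0.997), SESN3 (r = 0.996) and ZNF254 (r = 0.995), given as a description. With 6 libraries such values are common, and 411 tested genes had an r above 0.9 with REST. The 3′ end of REST shares 3459 bp with NOA1, a gene on the opposite strand that had between 29.98 and 39.31 TPM per library. Whether the counting used strand is not given in the sources used here, and without strand the reads of this stretch cannot be told apart. The other genes that overlap the 10 genes were at most at 0.77 TPM in any library. In bulk RNA, less RNA per cell and fewer cells with the RNA cannot be told apart, and this holds for each value below.

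**Figure D3:**
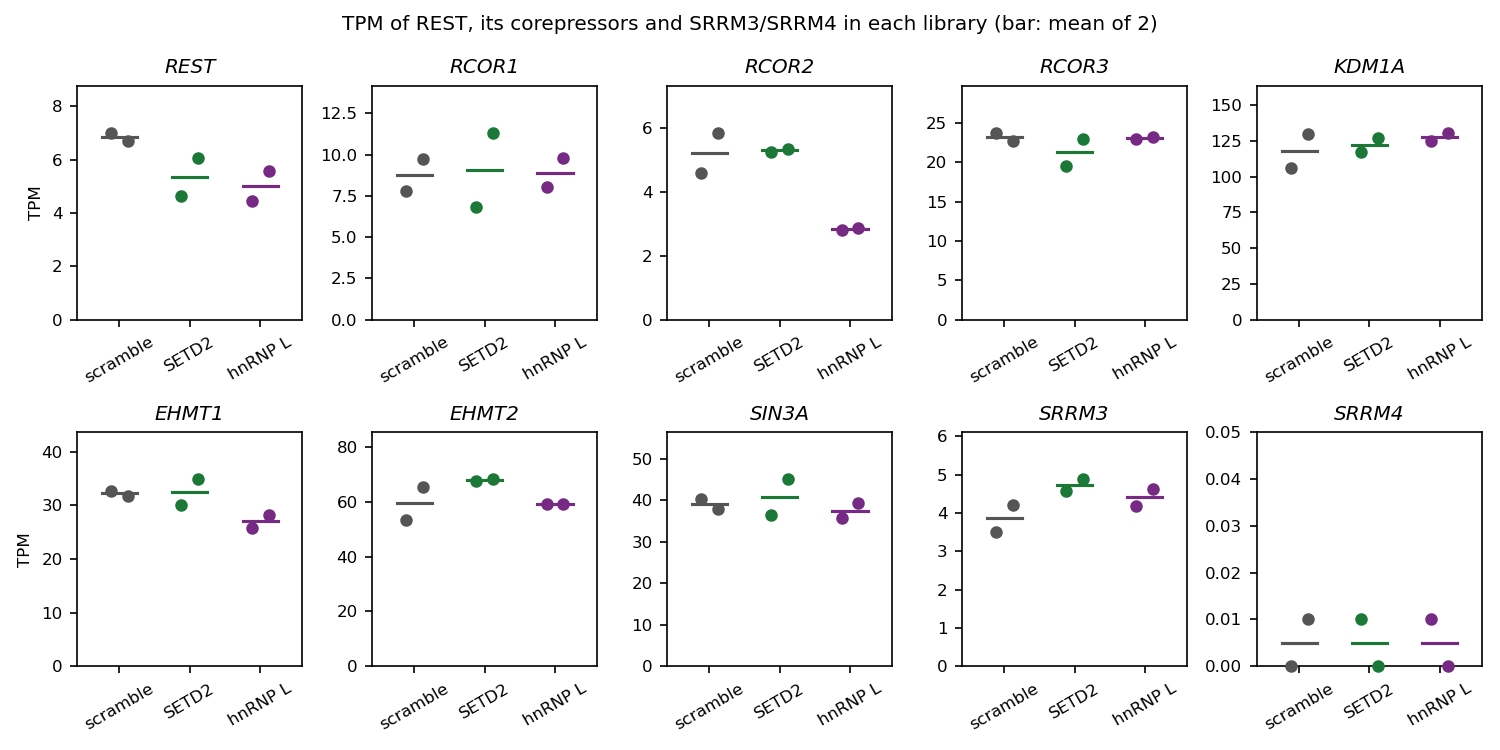
TPM per library (vertical axis, from 0 in each panel) of the 10 genes under scramble, SETD2 and hnRNP L siRNA, with points for the 2 libraries of a group and a bar for their mean. RCOR2 is at 2.82 and 2.86 TPM with hnRNP L siRNA and between 4.60 and 5.85 TPM elsewhere, and SRRM4 is at or below 0.01 TPM throughout.

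RCOR2 was lower with hnRNP L siRNA than in every other library. RCOR2 (ENSG00000167771) encodes a CoREST family scaffold and spans positions 63911230 to 63917164 of chromosome 11, on the minus strand, with no overlapping gene in GENCODE. It had 4.60 and 5.85 TPM with scramble siRNA and 5.24 and 5.35 TPM with SETD2 siRNA. With hnRNP L siRNA it had 2.82 and 2.86 TPM, below each of the other 4 libraries. Upon hnRNP L depletion RCOR2 fell by 0.77 on the log2(TPM + 0.5) scale (standard error 0.152, 95% interval -1.11 to -0.42, adjusted p = 0.0177 from limma). Its mean TPM, without the added 0.5, was 54.4% of the scramble mean. Against SETD2 depletion RCOR2 was lower by a log2 difference of -0.79 (standard error 0.152, 95% interval -1.14 to -0.45, adjusted p = 0.0156 from limma). The scramble libraries do not enter this difference, but they enter its standard error and adjusted p through the shared fit. Upon SETD2 depletion the RCOR2 log2 fold change was 0.03 (95% interval -0.32 to 0.37, adjusted p = 0.959 from limma). The RCOR2 value upon hnRNP L depletion stayed between -0.93 and -0.61 with each library left out in turn and between -0.85 and -0.65 under the other alternatives. Its adjusted p from limma rose to 0.0747 without scramble replicate 2, 0.118 without hnRNP L siRNA replicate 1 and 0.0761 without hnRNP L siRNA replicate 2, each of which leaves a group of 1 library. It also rose to 0.0842 without the filter on low genes and to 0.0614 with the replicate number as a block. The call between the depletions was likewise lost without SETD2 siRNA replicate 2 (adjusted p = 0.0862), SETD2 siRNA replicate 3 (adjusted p = 0.0995), hnRNP L siRNA replicate 1 (adjusted p = 0.111) or hnRNP L siRNA replicate 2 (adjusted p = 0.0717), and without the filter (adjusted p = 0.0836), all from limma.

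The other RCOR genes did not pass the test. RCOR1 (chromosome 14, 102592649 to 102730561), the founding CoREST scaffold, had 7.79 and 9.72 TPM with scramble, 6.80 and 11.32 TPM with SETD2 and 8.01 and 9.79 TPM with hnRNP L siRNA. The range with SETD2 siRNA took in both other groups, and the 95% interval of its log2 fold change ran from -0.49 to 0.52 upon SETD2 depletion and from -0.48 to 0.53 upon hnRNP L depletion. RCOR3 (chromosome 1, 211258377 to 211316385) had 23.73 and 22.71 TPM with scramble, 19.56 and 22.96 TPM with SETD2 and 22.98 and 23.14 TPM with hnRNP L siRNA. RCOR3 was the most abundant of the family in every library. Summed over the family, the scramble libraries held 36.12 and 38.28 TPM, the SETD2 siRNA libraries 31.6 and 39.63 TPM and the hnRNP L siRNA libraries 33.81 and 35.79 TPM. RCOR2 made up 12.7% and 15.3% of that sum with scramble, 16.6% and 13.5% with SETD2 and 8.34% and 7.99% with hnRNP L siRNA. These shares restate the RCOR2 values within each library and were computed after the values were seen.

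**Figure D4:**
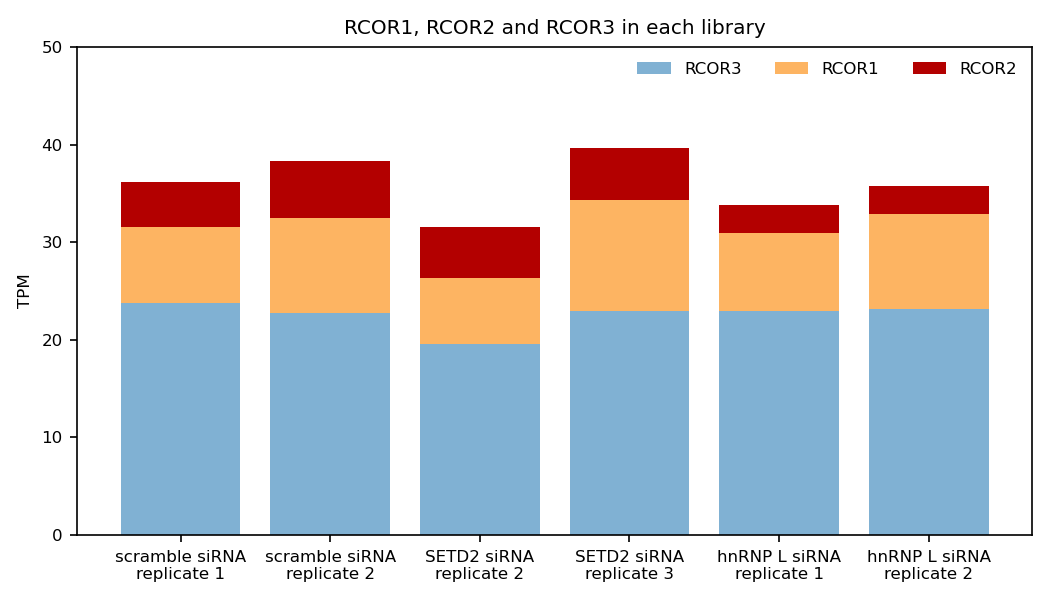
Stacked TPM (vertical axis, from 0) of RCOR3, RCOR1 and RCOR2 in each of the 6 libraries. The RCOR2 segment is smallest in both hnRNP L siRNA libraries, at 8.34% and 7.99% of the sum.

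KDM1A (chromosome 1, 23019443 to 23083689), the demethylase of the CoREST complex, had 105.85 and 129.62 TPM with scramble siRNA. It had 117.24 and 126.66 TPM with SETD2 siRNA and 125.17 and 130.61 TPM with hnRNP L siRNA. The groups overlapped, and the log2 fold changes were 0.06 upon SETD2 depletion (95% interval -0.21 to 0.32) and 0.13 upon hnRNP L depletion (95% interval -0.14 to 0.39). KDM1A was the most abundant of the 10 genes in every library. SIN3A (chromosome 15, 75369379 to 75455842), the scaffold at the N-terminal part of REST, had 40.24 and 37.89 TPM with scramble, 36.36 and 45.07 TPM with SETD2 and 35.76 and 39.29 TPM with hnRNP L siRNA. Its groups overlapped in all 3 comparisons.

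EHMT1 (chromosome 9, 137618992 to 137870016) had 32.76 and 31.74 TPM with scramble, 30.15 and 34.9 TPM with SETD2 and 25.87 and 28.19 TPM with hnRNP L siRNA. Both hnRNP L siRNA libraries lay below the other 4. The log2 fold change upon hnRNP L depletion was -0.25 (standard error 0.112, 95% interval -0.51 to 0.00, adjusted p = 0.180 from limma), and the difference from SETD2 depletion was -0.26 (adjusted p = 0.166 from limma). EHMT2 (chromosome 6, 31879759 to 31897698), which acts as a dimer with EHMT1, had 53.49 and 65.23 TPM with scramble, 67.7 and 68.18 TPM with SETD2 and 59.33 and 59.08 TPM with hnRNP L siRNA. The SETD2 siRNA libraries were the highest, with a log2 fold change of 0.20 (95% interval -0.06 to 0.46, adjusted p = 0.469 from limma). Neither methyltransferase passed the test in any of the 3 comparisons.

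SRRM3 (chromosome 7, 76201896 to 76287288) had 3.5 and 4.22 TPM with scramble, 4.57 and 4.88 TPM with SETD2 and 4.18 and 4.63 TPM with hnRNP L siRNA. The SETD2 siRNA libraries lay above the scramble libraries, while the hnRNP L siRNA libraries overlapped them. The log2 fold changes were 0.27 (standard error 0.149, 95% interval -0.07 to 0.60, adjusted p = 0.467 from limma) and 0.17 (standard error 0.149, 95% interval -0.16 to 0.51, adjusted p = 0.484). SRRM4 (chromosome 12, 118981541 to 119163051) was listed at 0.01 TPM in 1 library of each group and at 0 in the other, and was not tested.

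By their mean over the 6 libraries the genes fell in the order KDM1A (122.5 TPM), EHMT2 (62.2 TPM), SIN3A (39.1 TPM), EHMT1 (30.6 TPM), RCOR3 (22.5 TPM), RCOR1 (8.91 TPM), REST (5.73 TPM), RCOR2 (4.45 TPM), SRRM3 (4.33 TPM) and SRRM4 (0.005 TPM). The ranges over libraries of RCOR1 and REST, of REST and RCOR2, and of RCOR2 and SRRM3 overlapped. The ranges of the other neighbours in this order did not. REST was higher than 83.2% of all genes in the table and KDM1A than 98.2%.

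Subunits that work with these proteins were listed as a group of 24, from deacetylases (HDAC1, HDAC2) to further CoREST, SIN3 and EHMT partners, and all 24 were tested. By limma 0 were called upon SETD2 depletion (0.104% of all tested genes), where 2 had an unadjusted p under 0.05 (13.1% of all tested genes). Upon hnRNP L depletion 0 were called (6.76% of all tested genes), and 5 had such a p (28.4%). WIZ, a zinc finger partner of EHMT1 and EHMT2, had 22.87 and 21.73 TPM with scramble, 26.88 and 28.6 TPM with SETD2 and 29.25 and 32.84 TPM with hnRNP L siRNA. Its log2 fold change of 0.47 upon hnRNP L depletion had an adjusted p of 0.0291 from limma but was under the 1.5-fold threshold. The widest log2 fold changes upon SETD2 depletion were 0.31 for WIZ (adjusted p = 0.286 from limma) and 0.30 for RBBP4, a histone chaperone (adjusted p = 0.319). RBBP4 differed by -0.37 between the depletions (adjusted p = 0.0722 from limma), and the value of SAP30, a SIN3 complex subunit, was 0.37 upon hnRNP L depletion (adjusted p = 0.0760). Between the depletions 0 of the 24 were called (6.84% of all tested genes) and 6 had an unadjusted p under 0.05 (28.5%). SUDS3, another SIN3 complex subunit, passed the adjusted p but not the fold threshold, with 25.64 and 28.89 TPM with SETD2 and 18.53 and 19.68 TPM with hnRNP L siRNA (log2 difference -0.50, adjusted p = 0.0248 from limma). The median log2 fold change of the group was 0.08 upon SETD2 and -0.07 upon hnRNP L depletion.

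A group of 11 genes acts on REST protein rather than RNA, among them the ubiquitin ligase subunit BTRC, the deubiquitinases USP7 and USP15 and the phosphatase CTDSP1. None of the 11 was called by limma in any of the 3 comparisons, where 0.104%, 6.76% and 6.84% of all tested genes were called. An unadjusted p under 0.05 was reached by 1 of them upon SETD2 depletion, 2 upon hnRNP L depletion and 3 between the depletions, against 13.1%, 28.4% and 28.5% of all tested genes. The widest values upon SETD2 depletion were 0.31 for CTDSP1 (adjusted p = 0.327 from limma) and -0.26 for USP15 (adjusted p = 0.418). For hnRNP L siRNA they were 0.32 for TERF2 (adjusted p = 0.160 from limma) and 0.32 for CTDSP2 (adjusted p = 0.161). Between the depletions they were -0.44 for CTDSP1 (adjusted p = 0.0512 from limma) and 0.35 for USP7 (adjusted p = 0.111). Protein levels were not analysed here.

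Among 13 regulators of neuronal microexons and related splicing factors, 12 were tested. PTBP2, a polypyrimidine tract-binding protein of the neuronal lineage, was the only one called, upon hnRNP L depletion, where 6.76% of all tested genes were called, and between the depletions, where 6.84% were. It had 28.95 and 28.78 TPM with scramble, 29.99 and 36.08 TPM with SETD2 and 17.84 and 20.19 TPM with hnRNP L siRNA. PTBP2 fell by 0.59 on the log2 scale upon hnRNP L depletion (standard error 0.122, adjusted p = 0.0205 from limma), just over the 1.5-fold threshold, and its value was -0.50 and -0.49 with the other scalings between libraries, under that threshold. The call was lost without any single scramble or hnRNP L siRNA library, with the highest adjusted p at 0.167 from limma, without the filter on low genes (adjusted p = 0.0861) and with a pseudocount of 1 (-0.58, under the fold threshold). Against SETD2 siRNA the PTBP2 difference was -0.78 (adjusted p = 0.00894 from limma), and this call was lost without SETD2 siRNA replicate 3 (adjusted p = 0.0731), hnRNP L siRNA replicate 1 (adjusted p = 0.0894) or the filter (adjusted p = 0.0618). Upon SETD2 depletion 0 of the 12 were called by limma (0.104% of all tested genes) and 0 had an unadjusted p under 0.05 (13.1%). The widest values there were -0.19 for SRSF11 and 0.19 for PTBP2. Such a p was reached by 4 of the 12 upon hnRNP L depletion, 1 higher and 3 lower (28.4% of all tested genes). Between the depletions it was reached by 4, of which 2 were higher and 2 lower (28.5%). RBFOX3, named after its values were seen, had the widest value upon hnRNP L depletion, 0.88 (adjusted p = 0.0893 from limma), and was not called.

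The neuronal genes that REST is known to repress gave the background against which the repressor was read. Of 40 listed genes, 19 were tested, and the other 21 did not exceed 0.71 TPM in any library. Genes with low values could enter the tested set through the group in which they were high, so the counts describe the tested genes and not the whole list. Upon SETD2 depletion 5 of the 19 were called higher and 0 lower, and upon hnRNP L depletion 8 were called higher and 0 lower, where 0.0552% and 1.75% of all tested genes were called higher. Both sets are read against the same scramble libraries, and the list was made with earlier results of these data known. The synaptic vesicle protein gene SYP had a log2 fold change of 1.45 upon SETD2 and 1.06 upon hnRNP L depletion, and that of CPLX1, which encodes the synaptic fusion regulator complexin 1, was 1.74 and 1.42. AP3B2, a neuronal adaptor subunit, had 1.36 and 0.71, and MAPK8IP2, a kinase scaffold, had 0.96 and 0.61, so these 4 were called with both siRNAs. The share of all tested genes called with both siRNAs was not computed, so the count of 4 is a description only. CHGA, which encodes the granule protein chromogranin A, had 0.63 and 0.42 TPM with scramble, 1.54 and 1.34 TPM with SETD2 and 1.43 and 1.16 TPM with hnRNP L siRNA, and was called upon hnRNP L depletion (log2 fold change 0.81, standard error 0.215, adjusted p = 0.0451 from limma). RUNDC3A had 1.11 and 0.81 TPM with scramble, 3.79 and 2.95 TPM with SETD2 and 1.86 and 2.09 TPM with hnRNP L siRNA. Its log2 fold change was 1.41 upon SETD2 depletion (adjusted p = 0.0529 from limma) and 0.77 upon hnRNP L depletion (adjusted p = 0.0405).

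GDAP1, a mitochondrial outer membrane protein of neurons, had 5.84 and 6.86 TPM with scramble, 8.66 and 9.95 TPM with SETD2 and 10.56 and 12.37 TPM with hnRNP L siRNA. It was called upon hnRNP L depletion (log2 fold change 0.80, standard error 0.142, adjusted p = 0.0120 from limma). BSN, which encodes the presynaptic scaffold bassoon, had 0.4 and 0.31 TPM with scramble, 0.69 and 0.91 TPM with SETD2 and 1.16 and 1.11 TPM with hnRNP L siRNA, and was called upon hnRNP L depletion (log2 fold change 0.94, standard error 0.221, adjusted p = 0.0314 from limma). Both BSN scramble libraries were below 0.5 TPM, so BSN passed the filter only through the depleted groups in which it was high, and its call is no support for a rise. BEX1 was called upon SETD2 depletion (log2 fold change 0.85, adjusted p = 0.0305 from limma), with 12.65 and 14.08 TPM with scramble, 24.55 and 24.44 TPM with SETD2 and 14.13 and 13.5 TPM with hnRNP L siRNA. The scramble and hnRNP L siRNA libraries of BEX1 overlapped. STX1A, a synaptic membrane fusion protein named after its values were seen, was the one tested target gene with a negative log2 fold change upon SETD2 depletion (-0.44, adjusted p = 0.213 from limma). With hnRNP L siRNA 3 of the 19 were negative, STX1A at -0.21, CACNA1H at -0.19 and L1CAM at -0.14, the latter 2 also named after their values were seen. The libraries of STX1A and CACNA1H lay wholly below scramble siRNA there, and none of the 3 was called.

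An RE1-like match was present at 4 of the 9 target genes called against scramble siRNA (SYP, CHGA, BEX1 and RUNDC3A) and at 9 of the 19 tested. The median log2 fold change of the tested genes with a match was 0.85 upon SETD2 and 0.31 upon hnRNP L depletion, and that of the 10 without a match was 0.56 and 0.59. These medians are a description over few genes and no test. They include BSN, without a match, and STMN2, with a match and named after its values were seen. STMN2 had 0.31 and 0.13 TPM with scramble, 0.2 and 0.56 TPM with SETD2 and 1.44 and 0.56 TPM with hnRNP L siRNA. STMN2 passed the filter only through the hnRNP L siRNA group and BSN only through the depleted groups, in which they were high. BSN is also among the 9 called genes. SYN1, with an exact match and named after its values were seen, had 0.46 and 1.08 TPM with scramble, 2.52 and 2.25 TPM with SETD2 and 1.23 and 0.62 TPM with hnRNP L siRNA, and was not called. The counts of called target genes moved with the libraries used. SYP kept its calls against scramble siRNA with each library left out in turn, and so did CPLX1 upon hnRNP L depletion, while its call upon SETD2 depletion was lost without scramble replicate 1 (adjusted p = 0.122 from limma) or 2 (adjusted p = 0.0584). The hnRNP L calls of AP3B2, BSN, CHGA, MAPK8IP2 and RUNDC3A were lost without any single scramble or hnRNP L siRNA library, and those of CHGA and RUNDC3A also without either SETD2 siRNA library. That of GDAP1 was lost without scramble replicate 1 or either hnRNP L siRNA library. The SETD2 calls of AP3B2, BEX1 and MAPK8IP2 were lost without any single scramble or SETD2 siRNA library, that of BEX1 also without either hnRNP L siRNA library and that of MAPK8IP2 also without hnRNP L siRNA replicate 1. Over all alternatives the highest adjusted p from limma was 0.252 for BEX1 upon SETD2 depletion and 0.232 for CHGA upon hnRNP L depletion. Upon SETD2 depletion 1 target gene was called without scramble replicate 1 or without scramble replicate 2, 2 without either SETD2 siRNA library, and 3 without hnRNP L siRNA replicate 1. For hnRNP L siRNA the count was 2 without scramble replicate 1, without hnRNP L siRNA replicate 1 or without hnRNP L siRNA replicate 2, and 4 without scramble replicate 2.

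**Figure D5:**
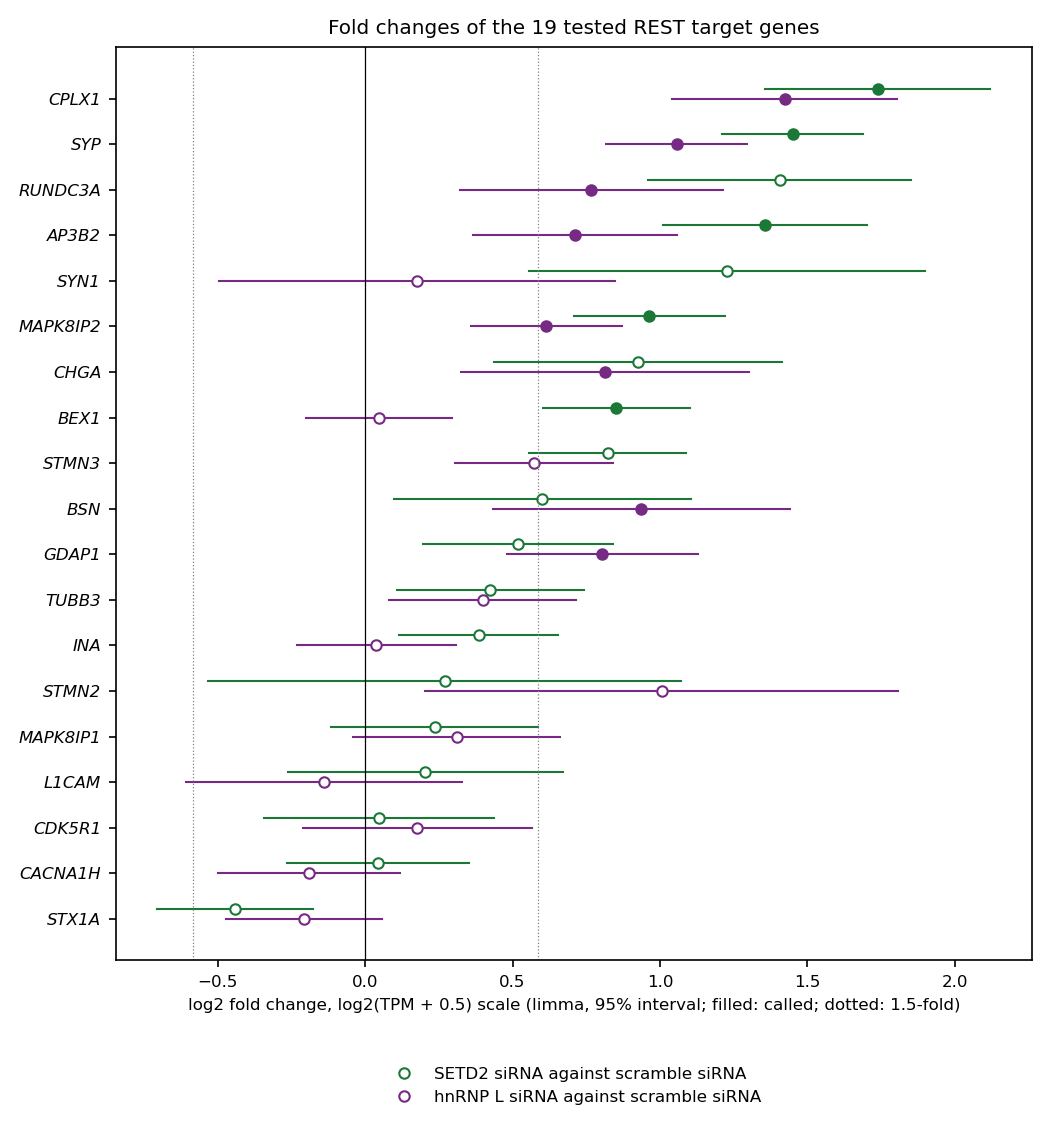
Log2 fold change on the log2(TPM + 0.5) scale (horizontal axis) of the 19 tested REST target genes, for SETD2 and hnRNP L siRNA against scramble siRNA, with 95% intervals from limma, filled points for called genes and dotted lines at a 1.5-fold change. Filled points are all on the positive side, 5 for SETD2 siRNA and 8 upon hnRNP L depletion.

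Markers of other cell types were read beside these genes. Neuronal markers (RBFOX3, MAP2, SYT1, SLC17A7, GAD1) summed to 10.4 to 12.67 TPM with scramble, 8.31 to 10.22 TPM with SETD2 and 12.3 to 12.77 TPM with hnRNP L siRNA. By limma 0 of the 5 were called against scramble siRNA (0.104% of all tested genes upon SETD2 and 6.76% upon hnRNP L depletion). An unadjusted p under 0.05 was reached by 0 upon SETD2 depletion (13.1% of all tested genes). Upon hnRNP L depletion it was reached by 3, of which 1 was higher and 2 lower (28.4%). All 5 had a negative log2 fold change upon SETD2 depletion, between -0.36 and -0.06. Fibroblast markers (COL1A1, COL1A2, COL3A1, DCN, LUM) summed to 5.55 to 6.95 TPM, 4.23 to 6.77 TPM and 5.69 to 6.46 TPM in the same order. Immune markers (PTPRC, CD3E, LYZ, CD68) summed to 1.99 to 2.72 TPM, 3.73 to 4.32 TPM and 3.38 to 3.62 TPM, and 3 of these 4 were below 0.5 TPM in every library. The part of these genes in the results above was not tested.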

How the data were processed

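RNA-seq of 6 libraries was analysed (scramble, SETD2 and hnRNP L siRNA, 2 each), and the H3K36me3 ChIP-seq samples were not analysed here. The TPM per gene were deposited by the authors, who used STAR 2.6.1c with Ensembl gene models on hg38 and then RSEM 1.3.0. The libraries were depleted of ribosomal RNA and enriched for polyA RNA, per the labels. TPM hold no counts per gene. Tests used log2 of TPM plus 0.5, on which changes of low genes come out too small, in limma 3.58.1 (R 4.3.3) with 1 mean per siRNA and empirical Bayes with a variance trend, for genes that averaged 0.5 TPM or more. The study tested counts with edgeR, which TPM do not allow, on protein-coding and lncRNA genes, a choice used here as an alternative. In simulated data of 16300 genes for hnRNP L against scramble siRNA, 174 of 200 changed genes were recovered, with 4 false calls. The changed genes averaged 2 TPM or more and changed at least 2-fold. This recovery therefore does not extend to lower genes or to smaller changes such as that of REST. Gene coordinates and RE1-like matches come from GENCODE 44 and hg38. Python 3.11.15, pandas 2.3.3, NumPy 2.4.6 and Matplotlib 3.10.9 were used for tables and plots.

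The 10 genes, the gene lists and the rule for named genes were chosen with earlier results of these data known. One listed gene is not reported here. The rule names the 10 genes, the siRNA targets, each called gene of a list or otherwise the 2 widest changes per list and comparison, and the 3 genes most correlated with REST. The alternatives changed the pseudocount (to 1 or to 0.1), the filter (absent, or at 1 TPM), the biotypes, the scaling (median-ratio or quantile), the groups in the fit, the variance trend, the fold threshold, the libraries included and the block.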

Additional observations from a re-analysis of the deposited data

Results flagged for a closer look

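Among the 10 genes and the listed genes, 6 differed between the 2 depletions in the direct comparison of hnRNP L with SETD2 siRNA. The threshold was an adjusted p under 0.05 from limma over 16300 genes. The log2 differences of this comparison use no scramble library, while its standard errors and adjusted p draw on all 6 libraries. The 6 genes were 1 of the 9 tested genes, 1 of the 24 partner subunits, 0 of the 11 genes that act on REST protein, 3 of the 19 tested target genes and 1 of the 12 splicing regulators. Of all tested genes 1753 (10.8%) passed the same threshold, so these counts do not set the listed genes apart. RCOR2 was lower with hnRNP L siRNA (log2 difference -0.79, adjusted p = 0.0156), as described above. SUDS3, a subunit of the SIN3 deacetylase complex, differed by -0.50 (adjusted p = 0.0248 from limma), with both SETD2 siRNA libraries above and both hnRNP L siRNA libraries below the 2 scramble libraries. The splicing regulator PTBP2 differed by -0.78 (adjusted p = 0.00894 from limma). Among the REST target genes the differences were -0.39 for SYP (adjusted p = 0.0481 from limma), -0.64 for AP3B2 (adjusted p = 0.0323) and -0.80 for BEX1 (adjusted p = 0.00507). Over the alternatives, left-out libraries included, the highest adjusted p from limma was 0.111 for RCOR2, 0.180 for SUDS3, 0.0894 for PTBP2, 0.224 for SYP, 0.151 for AP3B2 and 0.0529 for BEX1.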

How the results depend on the processing

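The REST log2 fold change kept its direction and stayed uncalled against scramble siRNA under every alternative, at -0.52 to -0.17 upon SETD2 depletion with 1 library left out (adjusted p from limma between 0.293 and 0.813 over all alternatives) and at -0.57 to -0.28 upon hnRNP L depletion (adjusted p between 0.0865 and 0.518). Upon SETD2 depletion 0 of the 10 genes were called under any alternative. With hnRNP L siRNA the count of 1, RCOR2, became 0 without the filter and with the replicate block (adjusted p = 0.0614 from limma) and ranged from 0 to 1 with 1 library left out. Between the depletions it became 0 without the filter and ranged from 0 to 1 likewise. Over its alternatives the adjusted p of RCOR2 ranged from 0.00543 to 0.118 upon hnRNP L depletion and from 0.00438 to 0.111 between the depletions. The count of REST target genes called upon SETD2 depletion, 5, became 0 without the filter and 3 with only the 2 groups compared or without the variance trend, and ranged from 1 to 4 with 1 library left out. For hnRNP L siRNA the 8 became 2 without the filter, 5 with only the 2 groups compared and 3 with the replicate block, and ranged from 2 to 6 with 1 library left out. Between the depletions the 2 became 1 without the filter, with median-ratio scaling or with quantile normalization and 4 among protein-coding and lncRNA genes, and ranged from 0 to 3 with 1 library left out. A group with 1 library is assumed to vary like the others, and the cause of these changes was not tested.

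Values near 0 changed sign with the scaling. With median-ratio scaling these were RCOR1 (-0.0022) and EHMT1 (-0.0072) upon SETD2 depletion, RCOR3 (0.084) and SIN3A (0.036) upon hnRNP L depletion, and REST (0.021) and SRRM3 (0.0078) between the depletions. With quantile normalization they were KDM1A (-0.025) and EHMT1 (-0.019) upon SETD2 depletion, RCOR3 (0.088) and SIN3A (0.018) upon hnRNP L depletion, and REST (0.030), SIN3A (0.0040) and SRRM3 (0.012) between the depletions. With 1 library left out, values that changed sign upon SETD2 depletion were RCOR1 (-0.33 to 0.36), RCOR2 (-0.13 to 0.18), KDM1A (-0.089 to 0.20), EHMT1 (-0.10 to 0.11) and SIN3A (-0.10 to 0.20). For hnRNP L siRNA they were RCOR1 (-0.13 to 0.17), RCOR3 (-0.040 to 0.022), KDM1A (-0.020 to 0.27), EHMT2 (-0.14 to 0.15) and SIN3A (-0.13 to 0.0088), and between the depletions REST (-0.26 to 0.10), RCOR1 (-0.34 to 0.36) and SIN3A (-0.26 to 0.043). Of all log2 fold changes recomputed, 635 kept direction and call, 103 lost a call, 2 gained one and 31 changed sign.

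Over all genes, 17 were called upon SETD2 depletion, 1 without the filter, 27 at a mean of 1 TPM, 60 among protein-coding and lncRNA genes and 12 to 40 with 1 library left out. With hnRNP L siRNA 1102 were called, 235 without the filter, 1826 without the fold threshold and 202 to 935 with 1 library left out. Between the depletions 1115 were called, 186 without the filter, 1753 without the fold threshold and 168 to 1078 with 1 library left out. The split between the depletions, 350 higher and 765 lower, was 457 and 460 with median-ratio scaling and 442 and 458 with quantile normalization, and upon SETD2 depletion the 9 and 8 were 6 and 14 with only the 2 groups compared. The numbers 1 and 2 occur with both scramble and hnRNP L siRNA. Across genes, libraries with the same number deviated from their groups with a correlation of -0.126, so the numbers were not taken as pairs. The replicate block called 715 genes. A block with crossed numbers, added after seeing the data, called 1406 genes, 1 of the 10 genes and 9 REST target genes. TPM hold no counts per gene, so counting error was not analysed here.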
